A study of Homo sapiens with 6 samples.

Results

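The loci described here are the transcribed regions of SiHa cells that gave more RNA in cells that had migrated through a transwell than in cells that had not. Counts were expressed as CPM, the fragments assigned to a locus divided by all assigned fragments of its library, times 1000000. A locus was included when its mean over the 6 libraries was at least 0.5 CPM, its mean migrated CPM was at least 1.5 times its mean non-migrated CPM, and every migrated library lay above every non-migrated library. Of 26006 loci in the expression table, 13321 reached 0.5 CPM and 159 met the whole rule. These values chose the loci, so the difference between the fractions is given as a description and is not tested again.

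SiHa is an established line from a squamous cell carcinoma of the cervix, used here at passage 18 to 23, untreated and with no genetic change named in the labels. Both groups came from transwell plates of 6 wells seeded with 750000 cells per well, and 10 hours later the cells of each fraction were scraped and pooled. The migrated group and the non-migrated group had 3 libraries each, in 3 paired replicate sets. Each library is thus a pool over wells, and separate cultures are not named in the labels, so any p-value measures only the spread between these libraries, which may be technical. The fractions were parted by where the cells were at that time, so a fraction is not a purified cell type, and in bulk RNA more cells of a type and more RNA per cell cannot be told apart.

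In a transwell, cells crawl through the pores of a membrane, and the cells on each side can be collected separately. Migration draws on the actin cytoskeleton, on adhesion to the matrix and on proteases that open it, and transcription of such genes can differ between moving and resting cells. The title of the study links migration to low SUV39H1, an enzyme that places the repressive histone mark H3K9 trimethylation. The loci are known here by assembly IDs alone, without gene symbol or coordinates. No gene function, cell marker, promoter or protein sequence could therefore be set beside a locus, and 2 IDs are printed, of the locus with the highest mean CPM and of the locus with the largest ratio among those of at least 5 CPM.

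The libraries held 18226280 to 33466924 assigned fragments, the deepest being non-migrated library 1. The libraries of set 2 stood apart from the others in the deposited FPKM (a level per unit of locus length), as described below for the number of fragments per unit of FPKM. With set 2 left out of the choice, 196 loci met the rule on the other sets and 128 of them were among the 159. The counts were 223 and 145 without set 1, and 208 and 139 without set 3. With fewer libraries the condition of no overlap is easier to meet. All 159 loci had an accepted status in every library and at least 3 fragments in each.

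Higher loci were few, and most differences were modest. Among the 13321 loci, 1.43% had a ratio of at least 1.5, 12.2% had every migrated library above every non-migrated library, and 1.19% met both conditions. The ratio of the 159 loci was 1.503 to 4.01 with a median of 1.68, against a median of 0.970 over all 13321 loci. It was under 1.6 at 56 loci, 1.6 to 1.8 at 52, 1.8 to 2 at 25 and at least 2 at 26. The same rule turned around, for loci lower in migrated cells, was met by 515 loci.

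**Figure D1:**
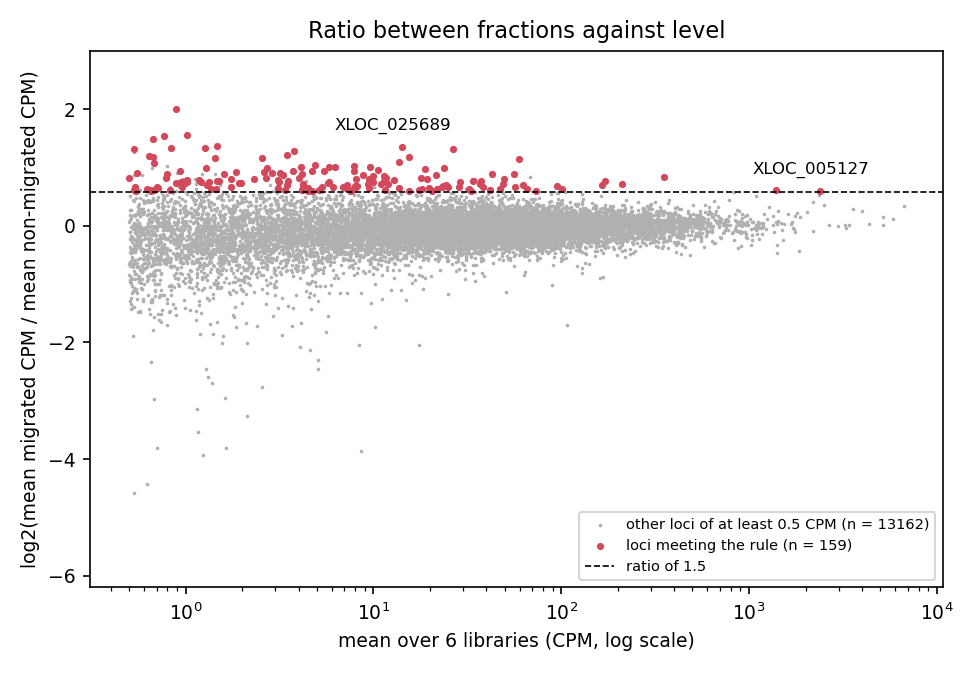
Each point is a locus of at least 0.5 CPM, with its mean over 6 libraries on a log axis and the log2 ratio of mean migrated to mean non-migrated CPM. The 159 loci that met the rule lie above the dashed line at a ratio of 1.5, most of them at the left, and XLOC_005127 lies at the far right close to the line.

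The edges of the rule were not gaps in the data. The 10 loci just inside the ratio had values of 1.503 to 1.520, and the 10 just outside that met the other conditions had 1.476 to 1.4997. Between 1.4 and 1.5 lay 67 further loci with no overlap between the fractions. A ratio of at least 1.5 with overlapping fractions was found at 32 loci, and 26 of these were under 5 CPM. Below 0.5 CPM, 57 loci with fragments in the non-migrated cells met the other conditions, and 10 more were above a non-migrated fraction listed at 0.

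XLOC_005127 had the highest counts of the 159 loci and was 14th of all loci in mean CPM. It gave 2186, 2031 and 1450 CPM in non-migrated libraries 1, 2 and 3, and 3092, 3217 and 2292 CPM in the migrated libraries of the same sets. The third library was the lowest of both fractions, and the lowest migrated value stood 1.05 times above the highest non-migrated one. The means were 1889 ± 388 and 2867 ± 502 CPM (SD, n = 3 each), a ratio of 1.52, and the ratio within the sets was 1.41, 1.58 and 1.58. Pooled over libraries the ratio was 1.47, with an exact 95% interval of 1.46 to 1.48 that covers counting error only and is far narrower than the spread between sets. Its difference was among the smallest of the 159, ranking 152nd by ratio. Its level per length was also high, with FPKM of 865 ± 167 and 1407 ± 178 (SD, n = 3 each).

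XLOC_025689 had the largest ratio among the loci of at least 5 CPM. It gave 8.19, 9.27 and 6.36 CPM in the non-migrated libraries and 19.6, 22.4 and 18.8 CPM in the migrated libraries. The fractions were far apart, the lowest migrated value being 2.03 times the highest non-migrated one. The means were 7.94 ± 1.47 and 20.3 ± 1.90 CPM (SD, n = 3 each), and the ratio was 2.56, or 2.39, 2.42 and 2.96 within the sets. The edgeR fit over all loci gave a log2 fold change of 1.39 (SE 0.14), with TMM scaling. Per length its level was in the middle of all loci, with FPKM of 4.95 ± 1.44 and 13.2 ± 2.62 (SD, n = 3 each).

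The other loci described singly were chosen after their values were seen and are given without an ID. The locus second in counts gave 1194, 1109 and 1010 CPM in the non-migrated and 1716, 1784 and 1564 CPM in the migrated libraries, a ratio of 1.53. The next locus by counts gave 306, 229 and 226 CPM against 517, 389 and 448 CPM, a ratio of 1.78, the largest of the 7 loci over 100 CPM. A locus of 15.5 CPM had the smallest spread within fractions of the 26 loci with a ratio of at least 2, with 9.38, 9.91 and 9.16 CPM against 19.8, 22.6 and 22.1 CPM and a ratio of 2.26. The lowest migrated value was 1.31, 1.27 and 2.00 times the highest non-migrated value at these 3 loci. The last of them was picked for a ratio of at least 2 and a small spread, which favours a wide gap. No link between gap and counts is therefore read from these loci.

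The largest ratio of all, 4.01, rested on few fragments. This locus gave 14, 3 and 9 fragments in the non-migrated libraries and 45, 34 and 24 in the migrated libraries, or 0.418, 0.146 and 0.494 CPM against 1.75, 1.47 and 1.03 CPM. Its ratio within the sets ran from 2.08 to 10.0, the highest value coming from the library with 3 fragments. In all, 22 of the 159 loci had under 10 fragments in at least 1 library.

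A few loci held most of the fragments. Together the 159 loci took 0.564%, 0.516% and 0.443% of the assigned fragments in the non-migrated libraries and 0.846%, 0.849% and 0.731% in the migrated libraries. The 2 loci with the highest counts made up 57.3% of the summed CPM, while the 78 loci under 5 CPM made up 2.37%. Without those 2 loci the shares were 0.226%, 0.202% and 0.197% against 0.365%, 0.349% and 0.345%, so libraries of a fraction were then closer to each other.

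Per unit of length, most of the loci were weakly expressed. The median of their mean FPKM was 1.73, against 8.32 over the 13321 loci, and the median locus stood at the 20.5th percentile of those loci by FPKM. The lowest 10% of all loci by FPKM held 50 of the 159 and the top 10% held 4, with 29 above the median. By counts, the rule was met by 3.98% of loci at 0.5 to 1 CPM, 2.59% at 1 to 5, 1.66% at 5 to 20, 0.526% at 20 to 100 and 0.283% above 100 CPM. The median ratio was similar in these classes, at 1.68, 1.73, 1.67, 1.599 and 1.63, whereas the highest ratio went from 4.01 in the lowest class to 1.78 in the highest. The mirrored rule was met by 141 of 704, 245 of 1928, 89 of 2704, 32 of 5509 and 8 of 2476 loci of the same classes.

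The lengths of the loci resembled those of all loci. Relative length, the scaled fragments per unit of FPKM divided by the median over the 13321 loci, had a median of 0.974 among the 159 and quartiles of 0.620 and 1.61, against quartiles of 0.618 and 1.57 over all loci. In 5 length classes of equal size, from short to long, 32, 33, 31, 32 and 31 loci met the rule. Over the same classes the loci with every migrated library higher, whatever their ratio, numbered 403, 354, 333, 299 and 230. The 159 were thus spread evenly over length, while the loci of that wider group were more numerous among short loci. The median ratio of all loci also fell from short to long, at 1.009, 0.980, 0.973, 0.959 and 0.930. Neither the difference between the groups nor its link to that fall was tested.

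No single library set the extremes within its fraction. The order between the fractions, seen in the plot of levels by library, was fixed by the rule and is not a result. Within the non-migrated fraction, library 1 was the highest at 72 of the 159 loci, library 2 at 34 and library 3 at 53. Within the migrated fraction, library 1 was highest at 64, library 2 at 59 and library 3 at 36. The median deviation of a library from its fraction's mean was -0.0448 to 0.0439 on the log2 scale.

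**Figure D2:**
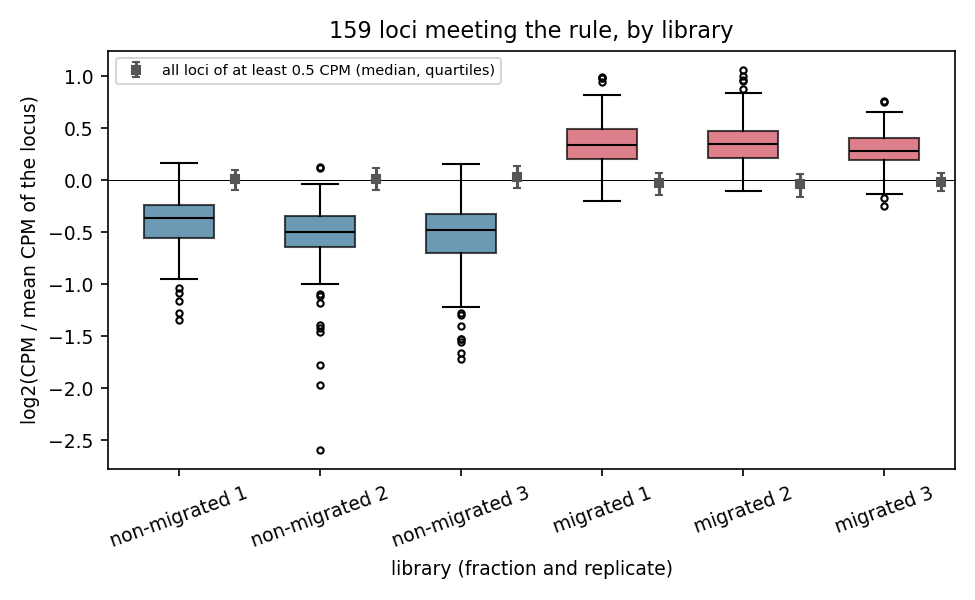
Boxes show, for each library, the log2 ratio of CPM to the locus mean over 6 libraries for the 159 loci (centre line median, box quartiles, whiskers to 1.5 box lengths), and grey squares show the median and quartiles of all loci of at least 0.5 CPM. The 3 non-migrated boxes lie below 0 and the 3 migrated boxes above it, as the rule requires, with single loci reaching far lower in non-migrated library 2.

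The median ratio within a set was 1.65, 1.748 and 1.696 in sets 1, 2 and 3, against 0.976, 0.963 and 0.973 over all loci. A ratio of at least 1.5 was reached by 118, 137 and 129 of the 159 loci, and by 1.94%, 2.25% and 2.61% of all loci, a contrast that the rule itself imposes. All 3 sets reached 1.5 at 78 loci, 2 sets at 69 and 1 set at 12, and 10 loci reached 2 in all 3 sets. At the median locus the highest set ratio was 1.28 times the lowest, and at 9 loci it was over 2 times the lowest.

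Libraries of the same set deviated together. Across the 159 loci, deviations from the fraction mean correlated at 0.574, 0.552 and 0.585 between the migrated and non-migrated library of sets 1, 2 and 3, and at -0.399 to -0.221 between libraries of different sets. The deviations of a fraction sum to 0, which pushes the correlations between sets below 0. Over 13551 loci the correlations within sets 1, 2 and 3 were 0.529, 0.489 and 0.401, so loci in general deviated by set. A locus of 49.6 CPM shows the pattern, with 33.3, 48.0 and 27.3 CPM in the non-migrated libraries and 52.9, 81.0 and 55.0 CPM in the migrated libraries. Set 2 was high in both fractions there, the spread within a fraction was wide, and the ratios within the sets were 1.59, 1.69 and 2.01.

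From 5 CPM upward, the spread within a fraction exceeded both counting error and the usual spread. At 20 to 100 CPM the median coefficient of variation (SD over mean of the 3 libraries) of the 29 loci was 11.4% in each fraction, against 5.80% in migrated and 6.17% in non-migrated cells over all loci of that level. Counting error alone would give 2.50% and 3.35% there. Above 100 CPM the 7 loci gave 8.52% and 10.8% in migrated and non-migrated cells, against 5.003% and 5.47% over all loci. Below 1 CPM the 28 loci gave 18.1% and 24.4%, close to the 17.7% and 24.9% that counting error gives. All loci of that level gave 23.6% and 23.4%, so in migrated cells the 28 loci spread less than that. The rule asks for fractions that do not overlap, which bounds the spread of the loci it keeps. By the rule their migrated counts also lie above their mean level, where counting error is smaller. Both coefficients were under 10% at 19 loci, and at least 1 was over 30% at 28. The same counts were not taken over all loci, and coefficients are larger at low levels, so nothing is read from these counts.

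**Figure D3:**
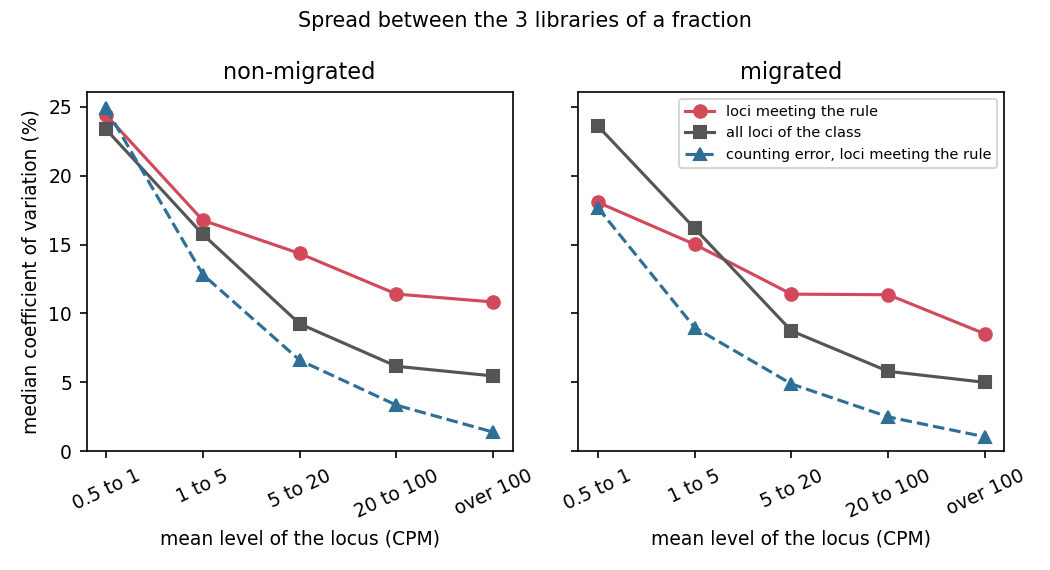
Points give the median coefficient of variation, in percent, over the 3 libraries of a fraction for 5 classes of mean CPM, for the loci that met the rule, for all loci of the class and for counting error alone. From 5 CPM upward the loci that met the rule lie above all loci of their class in both fractions, and below 1 CPM they lie close to counting error.

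To read the difference in libraries that the choice did not use, the rule was applied to 2 sets and the chosen loci were read in the set left out. Most stayed higher in migrated cells, with a smaller median ratio than in the sets that chose them. The labels name no separate cultures, so the set left out may share its culture with the sets used. The shares that follow are a description and were not tested. With set 1 left out, 223 loci were chosen, with a median ratio of 1.69 in the sets used and 1.501 in set 1, where 204 (91.5%) were higher in migrated cells, against 43.6% of all loci. With set 2 left out, 196 loci gave 1.69 and then 1.604, with 171 (87.2%) higher, against 41.1% of all loci. With set 3 left out, 208 loci gave 1.69 and then 1.56, with 187 (89.9%) higher, against 42.7% of all loci. With TMM scaling the chosen loci were higher in 92.1%, 88.7% and 91.7% of cases and all loci in 53.3%, 51.9% and 52.0%.

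A ratio of at least 1.5 was kept in the set left out by 113 of 223, 115 of 196 and 119 of 208 loci, against 1.94%, 2.35% and 2.66% of all loci. Chosen with a minimum of 5 CPM, the loci had a median ratio of 1.66, 1.65 and 1.64 in the sets used and 1.55, 1.65 and 1.65 in set 1, 2 and 3, so the median was smaller in set 1 and not in set 2 or 3 beyond rounding. The loci that turned were nearly all weakly counted. Of the chosen loci of at least 5 CPM, 101 of 101, 83 of 84 and 88 of 88 were higher in set 1, 2 and 3. Under 5 CPM these were 103 of 122, 88 of 112 and 99 of 120. This split used the mean over all 6 libraries, so the set left out entered it. With the minimum of 5 CPM applied to the sets used alone, 100 of 100, 83 of 84 and 90 of 90 were higher. Of the 159 loci, 107 were chosen whichever set was left out, 40 in 2 of the 3 choices, 11 in 1 and 1 in none. The number in a set rests on reading the replicate index of the table as the number in the labels.

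**Figure D4:**
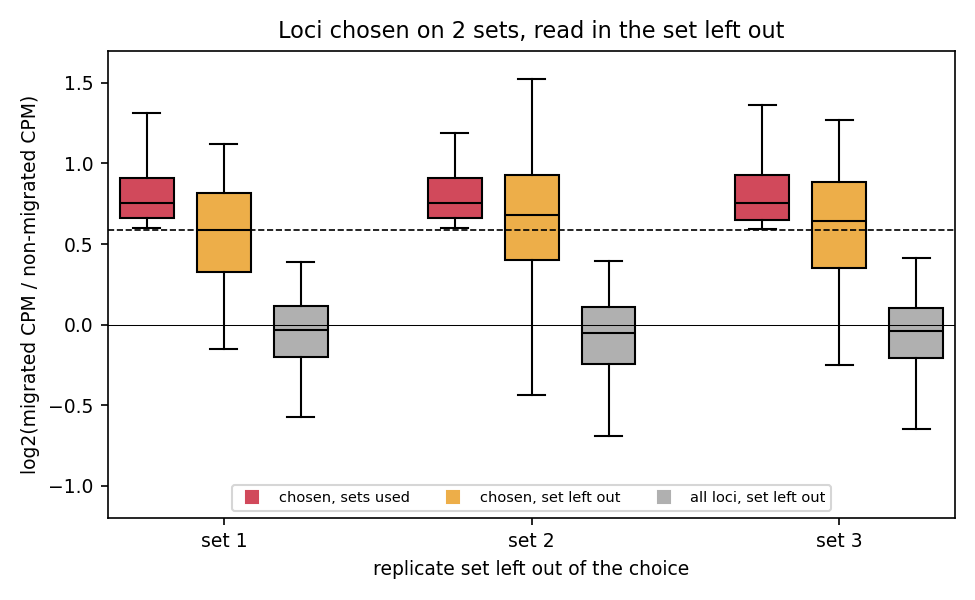
Boxes show the log2 ratio of migrated to non-migrated CPM (centre line median, box quartiles, whiskers 5th to 95th percentile) for loci chosen on 2 replicate sets, in those sets and in the set left out, and for all loci in the set left out. In each set left out the chosen loci lie lower than in the sets that chose them and well above all loci, and the dashed line marks a ratio of 1.5.

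Fragments per unit of FPKM also vary between libraries for the same locus, as the effective length behind an FPKM value can be estimated for each library. The measure, taken on the authors' scaled fragments, does not enter the rule, and it was available for 137 of the 159 loci with at least 10 fragments in every library. It hardly differed between the fractions, with a median log2 difference (migrated minus non-migrated) of -0.00466 among the 137 loci and -0.00132 among all 12954 loci measured. By limma with the replicate set as a block, 0 of the 12954 loci passed an adjusted p of 0.05 (background 0%), and 203 were under an unadjusted p of 0.05, including 4 of the 137. Without the block 0 passed and 14 were under the unadjusted threshold, with 0 of the 137. The largest difference among the 137, 0.42 on the log2 scale, was at a locus of 0.797 CPM with relative lengths of 0.481, 0.755 and 0.741 in the non-migrated and 1.08, 1.03 and 0.574 in the migrated libraries, which overlap.

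The same measure did separate the sets. At the median of the 137 loci it differed by 0.0269 on the log2 scale between the fractions of a set and by 0.134 between sets of a fraction. Over the 12954 loci these medians were 0.0275 and 0.142. Of the 137 loci, 131 (95.6%) were closer within sets, against 98.3% of the 12954 loci, so this was not particular to the 137. Across the 12954 loci, every library was most alike to the library of the same number in the other fraction, at correlations of 0.899, 0.964 and 0.899 for sets 1, 2 and 3. Set 2 deviated most, with a median of 0.131 in non-migrated and 0.0855 in migrated cells among the 137 loci, against 0.0505 to 0.0731 in the other libraries. Over the 12954 loci set 2 also deviated most, at 0.148 and 0.0973, against 0.0579 to 0.0768. Read on FPKM, the rule was met by 245 loci, among them 156 of the 159. FPKM also scales the libraries differently, with a median ratio over all loci of 1.03 against 0.970 in CPM, and what this and the lengths each add to the count was not tested.

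**Figure D5:**
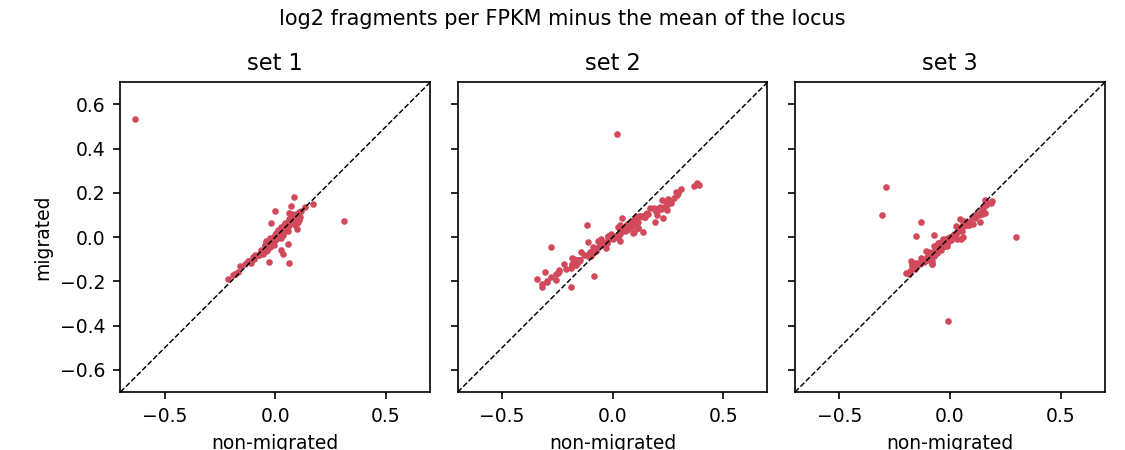
Each point is 1 of 137 loci, with the log2 fragments per FPKM minus the mean of the locus over 6 libraries, in the non-migrated (horizontal) and migrated library (vertical) of each replicate set. Points follow the dashed line of equal deviation in all 3 sets and spread furthest along it in set 2.

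The loci were spread over the whole range of ID numbers, with some neighbours. The IDs run from 1 to 26008, and the sources do not state whether the numbers follow chromosomal position. In blocks of 1000 IDs, the rule was met by 1 to 12 loci, or 0.200% to 2.39% of the loci of at least 0.5 CPM, leaving aside the last block of 8 IDs with none. The 3 blocks with 12 loci were IDs 14001 to 15000 (of 502 loci), 18001 to 19000 (of 512) and 16001 to 17000 (of 558). There were 5 pairs with consecutive numbers and no longer run, so 10 of the 159 loci (6.29%) had a neighbour that met the rule. Of the 515 loci of the mirrored rule, which is met by 3.87% of loci and so more often, 7.18% had a neighbour among themselves. Of the loci of at least 0.5 CPM next to one of the 159, 10 of 179 (5.59%) met the rule, compared with 1.19% of all. At a distance of 2 and 5 IDs the shares were 3.33% (6 of 180) and 3.85% (6 of 156). A pair enters each of these shares from both of its loci, so the 10 of 179 are the 5 pairs. Neighbours at a distance of 1, 2 and 5 that did not meet the rule had a median ratio of 1.02, 0.992 and 1.001, against 0.968 over all loci that did not meet it.

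Members of the consecutive pairs often differed in level. In 1 pair the loci gave 6.96, 6.88 and 7.63 CPM against 14.5, 13.8 and 13.7 CPM, and 29.7, 23.7 and 29.3 CPM against 50.9, 43.4 and 46.2 CPM, at 10.5 and 50.6 FPKM on average. In another pair the mean FPKM was 0.0934 and 10.1, with ratios of 1.66 and 1.62. The ratios of the remaining 3 pairs were 2.02 and 1.68, 1.82 and 1.52, and 1.86 and 1.77. The sources do not state how overlapping neighbours were counted. Counts more than 0.01 from a whole number, as arise when fragments are shared among loci or transcripts, occurred at 2 of the 159 loci (1.26%) and at 1.51% of all 13321. With a tolerance of 1e-09, which also takes in values closer to a whole number, they occurred at 13 loci (8.18%) and 7.07%.

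All 159 loci passed the count filter of the edgeR quasi-likelihood fit over 13551 loci. That fit called 127 of them higher at an adjusted p of 0.05 without a block, against 6.46% of all loci tested, and 148 with the replicate set as a block, against 20.8%. Without the block the count was 81 when non-migrated library 2 was left out and 83 when migrated library 2 was. The calls over all loci then fell as well, from 876 to 411 and 355. The rule read the same libraries and the same contrast, so nothing is drawn from these counts. The 32 loci not called without the block had a median of 0.916 CPM, and the one with the highest mean CPM was the locus of 49.6 CPM described above. The fitted log2 fold changes were 0.61 to 2.02 with a median of 0.78, against a median of 0.00211 over all loci. TMM scaling moved the ratio of all loci up by 0.0569 on the log2 scale relative to column totals.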

How the data were processed

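Per the submitters' processing notes, CASAVA 1.8.2, TopHat2, Cufflinks 2.2.1, Cuffdiff and hg19 were used, with order, settings, annotation and strand handling not given in the sources used here. Per the file headers, the deposited estimated counts are fragments assigned to a locus and library before scaling (0.373% of nonzero values lie more than 0.01 from a whole number), the deposited scaled signal is those fragments after the authors' scaling between libraries, and the deposited FPKM relates it to locus length. The 2 deposited gene lists carry no link to the loci and were not used here.

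CPM used column totals (pandas 2.3.3). Counts were rounded and fitted with edgeR 4.0.16 (R 4.3.3; TMM, filterByExpr, robust quasi-likelihood F-test, two-sided, Benjamini-Hochberg over all loci). The SE is the log2 fold change over the square root of F. DESeq2 1.42.0 and limma 3.58.1 served as alternatives, limma also for log2 fragments per FPKM, a measure added after seeing the data. Expected counting error is the median that an SD of 3 values would have. Scripts were tested on simulated data.

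The series describes paired sets, and the table's replicate index was read as the label number. Across 13551 loci, deviations of same-numbered libraries from their fraction means correlated at 0.529, 0.489 and 0.401, so the numbers were taken to pair the libraries. Members, naming rule and alternatives were chosen with earlier results of these data known.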

Additional observations from a re-analysis of the deposited data

How the results depend on the processing

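The number of loci meeting the rule, 159, became 198 with TMM scaling and 194 with DESeq2 size factors, each including all 159. It became 245 with FPKM in place of CPM (156 shared), 81 with a minimum of 5 CPM, 504 with a lower minimum ratio and 26 with a minimum of 2, and 86 (78 shared) with the paired rule, a ratio of 1.5 in each set. Leaving out 1 library gave 166 to 229 loci, of which 135 to 141 were among the 159. The mean over sets of the median ratio in the set left out was 1.555, and 1.615 with a minimum of 5 CPM. Loci called higher by edgeR, 876 without a block, numbered 2824 with the replicate block, and with the block 1920, 1816 and 2679 without set 1, 2 and 3. They numbered 573 with library totals, 70 and 69 with limma-trend on log2 FPKM (pseudocount 1 and 0.1) and 5 with limma-trend and no filter. Without 1 library they numbered 355 to 606, and each library but non-migrated library 3 moved the count by more than 1.5 times. Of the 159 loci, 127 were called, beside 876 over all loci, and 53, 51 and 5 by the limma settings, beside 70, 69 and 5. Without 1 library 81 to 100 of the 159 were called, beside 355 to 606 over all loci. The lowest count of the 159 was without non-migrated library 2, and next came 83 without migrated library 2. The replicate block gave 148, beside 2824 over all loci. XLOC_005127 kept a log2 fold change of 0.49 to 0.79 and was called in 7 of 17 alternatives, XLOC_025689 1.26 to 1.51 and in 16 of 17. The rule read the same libraries and contrast, so nothing is drawn from the calls of the 159 loci or of these 2. The cause of the shifts between settings was not tested. Under 5 CPM, counting error limits what a ratio of 1.5 can show.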
